A study of Homo sapiens with 1 sample.

Results

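ATAC-seq maps accessible chromatin by letting the transposase Tn5 cut and tag DNA that nucleosomes leave exposed. The promoters described here are GC-rich promoters that were closed in 786-O cells, an established clear cell renal cell carcinoma line. The cells carried an empty vector and served as the control for overexpression of the chromatin remodelling factor DPF3a. The data were the peak list of 1 library with no replicate, so every value describes that library and no p-value is given. The DPF3a library was not analysed here. Among genes looked up to check the label, the renal lineage genes PAX8 (fold 31.9), PAX2 (22.7) and CDH6 (36.1) had a peak in the promoter, and CD3E, ALB and NEUROD1, which mark lymphocytes, liver and neurons, had none. Not every gene looked up is reported here.

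A promoter was the stretch that begins 1 kb before and ends 100 bp past the canonical transcription start site (TSS) of a protein-coding gene on chromosomes 1 to 22 (hg38, GENCODE release 44). Of 19111 such promoters, 2489 had a GC content of at least 65%. A peak overlapped 1813 of these, which are called open. Of the rest, 118 had no peak within 50 kb and were set aside, and 558 had a peak elsewhere within 50 kb. These 558 closed GC-rich promoters are the subject below, and they covered 543 distinct stretches because some of them overlap. They made up 23.5% of the 2371 GC-rich promoters with a peak in or near them (exact 95% interval, 21.8 to 25.3%). They were chosen by the peak list and by GC content, so both are descriptions and not findings. Of the 19111 promoters of any GC content, 7396 (38.7%) were closed.

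Promoters rich in GC usually lie in CpG islands, stretches that keep many CG dinucleotides (CpGs) because they stay free of DNA methylation in the germ line. Such promoters are open in most cells when they belong to genes that every cell uses. Those of developmental and lineage genes are known to be kept silent outside their tissue by Polycomb complexes, and in tumours some gain DNA methylation. Neither Polycomb marks, methylation nor RNA were measured in this library.

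The bases just before the start site are shown for 6 closed promoters, to let the range of their sequence be seen. Each run holds the 120 bases before the TSS, 5′ to 3′ on the strand of the gene, read from hg38, with every CpG in capitals. SOX1 (chr13:112067029-112067148, plus strand) and NKX6-2 (chr10:132786148-132786267, minus strand) stand for developmental transcription factors. KCNJ4 (chr22:38455200-38455319, minus strand) is a potassium channel gene, and BNC1 (chr15:83284665-83284784, minus strand) is a gene described as methylated in renal tumours. BARHL2 (chr1:90717303-90717422, minus strand) and GREP1 (chr16:2988136-2988255, plus strand) come from the top and the bottom of the range of the CpG observed/expected ratio, defined below, of the whole window.
SOX1: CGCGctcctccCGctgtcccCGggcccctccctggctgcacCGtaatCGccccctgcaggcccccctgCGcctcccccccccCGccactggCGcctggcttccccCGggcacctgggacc
NKX6-2: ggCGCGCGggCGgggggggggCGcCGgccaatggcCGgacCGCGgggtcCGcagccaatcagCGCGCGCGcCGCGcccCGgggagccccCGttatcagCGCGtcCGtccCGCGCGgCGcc
KCNJ4: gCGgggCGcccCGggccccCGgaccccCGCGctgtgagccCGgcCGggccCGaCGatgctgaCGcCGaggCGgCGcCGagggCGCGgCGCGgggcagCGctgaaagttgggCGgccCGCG
BNC1: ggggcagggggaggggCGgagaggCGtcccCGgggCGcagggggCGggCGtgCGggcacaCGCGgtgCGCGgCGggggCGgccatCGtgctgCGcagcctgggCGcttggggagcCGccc
BARHL2: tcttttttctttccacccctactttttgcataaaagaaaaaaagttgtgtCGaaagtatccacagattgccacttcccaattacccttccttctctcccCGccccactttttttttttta
GREP1: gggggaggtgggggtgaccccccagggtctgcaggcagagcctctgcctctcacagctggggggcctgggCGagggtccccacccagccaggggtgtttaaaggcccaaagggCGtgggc

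NKX6-2 held 25 CpGs in these 120 bases, KCNJ4 23, BNC1 17 and SOX1 10. GREP1 held 2 at a GC content of 71.7%, so its G and C bases rarely stood together as CpG. BARHL2 also held 2, at a GC content of 38.3%. Its window as a whole had the highest CpG observed/expected ratio of all 558, so the AT-rich bases beside its TSS were not typical of its window.

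A closed promoter here is one with no listed peak, which is not an absence of accessibility. The list held 88676 peaks, and its weakest peaks had a pileup of 9 reads or fragments at the summit. The deposited fold is the pileup plus 1, divided by the genome-wide background pileup of 0.941 plus 1. A pileup of 9 is thus a fold of 5.15 (exact Poisson 95% interval, 2.64 to 9.32), and this fold lies below the plain ratio of pileup to background. Weaker openings would not have been listed, and the total read depth is unknown. The authors removed reads of low mapping quality, and the part of this step in the closure of any promoter was not tested. A further copy in the reference, meaning a match over at least 50% of the window at 95% identity or more, was found for 34 of the 558 (6.09%, 4.26 to 8.41%) and for 11 of the 1813 open promoters (0.607%, 0.303 to 1.08%). Among the 118 without a peak within 50 kb it was 77 (65.3%). Without these promoters, 524 closed promoters remained and the closed share was 22.5%. A named gene with such a copy is marked below. All intervals cover counting error only, and neighbouring promoters are not independent.

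At the threshold of GC content, the closed promoters of ADGRB1, CHCHD10 (which has a copy) and CPM lay just inside at 65.03%, and those of ARHGEF7 and DPYSL5 just outside at 64.94%. The promoter of KCNK13 lay just outside the distance limit, with its nearest peak 50.007 kb away. Among open promoters the smallest overlap with a peak was 4 bp, and PHF10 (44 bp) and INSRR (45 bp) came next. Overlaps under 100 bp made up 10 of the 1813.

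Closed promoters had fewer CpGs than open ones at nearly the same GC content. The CpG observed/expected ratio is the number of CpGs divided by the number that the C and G content alone would give. Its median was 0.705 in the 558 closed promoters (interquartile range, 0.582 to 0.801) and 0.812 in the open ones (0.727 to 0.883). The 95% intervals of these medians, 0.686 to 0.721 and 0.806 to 0.819, did not overlap. Median GC content was 68.2% and 68.5%. The closed share fell in every step of the ratio, from 53 of 68 promoters (77.9%, 66.2 to 87.1%) below a ratio of 0.4 to 34 of 392 (8.67%, 6.08 to 11.9%) at 0.9 or more. Between them it was 58.9%, 43.1%, 33.4%, 23.3% and 14.7% in steps of 0.1. By GC content it was 24.9% from 65 to 70%, 21.7% from 70 to 75% and 17.4% above, with intervals that overlapped between neighbouring steps.

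**Figure D1:**
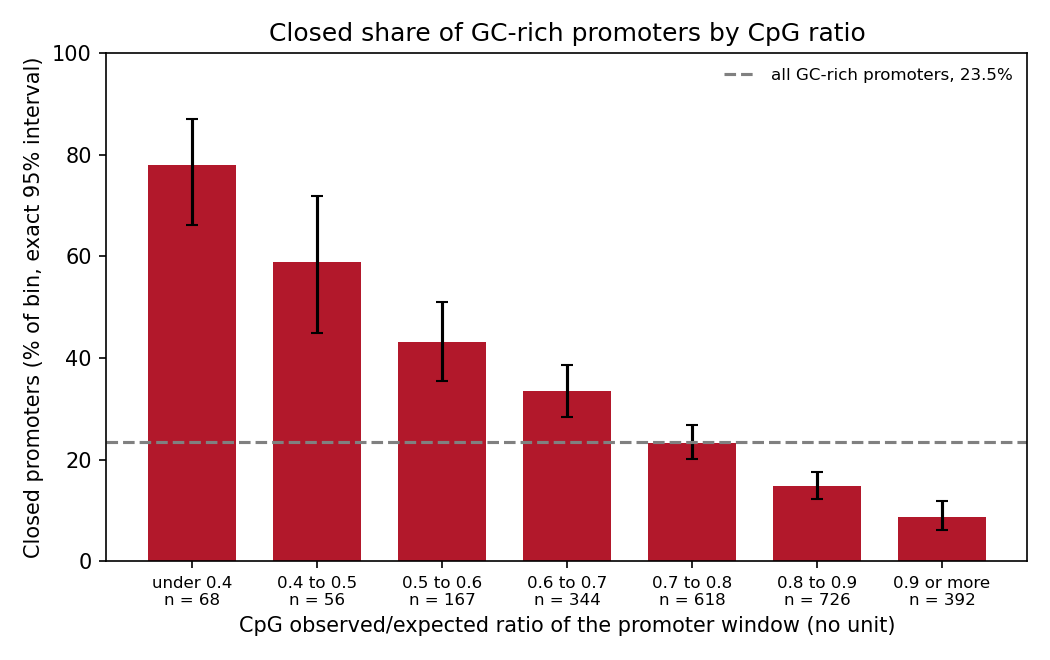
Closed share of GC-rich promoters (vertical axis, percent) by CpG observed/expected ratio (horizontal axis, no unit); bars are shares, lines are exact 95% intervals and the dashed line is the share over all GC-rich promoters. The share falls from 77.9% in the lowest step to 8.67% in the highest.

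Most closed promoters nonetheless had the sequence of a CpG island. A promoter was put in the high-CpG class when a window of 500 bp had a ratio above 0.75 and a GC content above 55%, and in the low-CpG class when no such window reached 0.48. The high-CpG class held 424 of the 558 (76.0%, 72.2 to 79.5%) against 1708 of 1813 open promoters (94.2%), a difference of -18.2 percentage points (Newcombe 95% interval, -22.1 to -14.7). The low-CpG class held 43 closed and 8 open promoters, and 84.3% of its promoters were closed (71.4 to 93.0%). In the high-CpG class 19.9% were closed, and in the intermediate class 48.4%.

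The highest ratio among the closed promoters was that of BARHL2, at 1.14, a homeobox gene of the developing nervous system. NKX6-2 (1.08), a homeobox gene of the neural tube and oligodendrocytes, DLGAP2 (1.05, with a copy in the reference), a scaffold gene of synapses, IKZF1 (1.04), which encodes the lymphoid factor Ikaros, and LRRC4 (1.04), a synaptic adhesion gene, followed. At the other end, INS and the readthrough gene INS-IGF2 share a start site with a ratio of 0.130. INS encodes insulin and is used in pancreatic beta cells. GREP1 (0.181) and IGLON5 (0.184), a gene of neuronal cell adhesion, were also low. The lowest ratio, 0.120, belonged to a gene without a symbol, ENSG00000267706.

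A divergent partner was annotated less often for closed promoters. A partner start lies inside the window, so a peak there makes the promoter open by the rule, and part of this difference is built into the definition. A TSS of another gene pointing away from the promoter within 1 kb upstream was annotated for 96 of the 558 (17.2%, 14.2 to 20.6%) and for 816 of the 1813 open promoters (45.0%, 42.7 to 47.3%), a difference of -27.8 percentage points (-31.5 to -23.8). Within the high-CpG class it was 20.3% and 46.1%. When the partner had to be the canonical TSS of a protein-coding gene, it was 20 closed promoters (3.58%) and 415 open ones (22.9%). Closed promoters lay within 5 Mb of a chromosome end somewhat more often, in 222 of 558 (39.8%) against 33.1%, a difference of 6.69 points (2.14 to 11.3).

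Motifs of factors that act at housekeeping promoters were less frequent in closed promoters. Each motif except the TATA box was searched by its letters on both strands of the window, and a match is a description and not a bound site. The ETS motif CCGGAAG was in 68 closed promoters (12.2%, 9.59 to 15.2%) and in 26.9% of open ones, a difference of -14.7 points (-18.0 to -11.1), and in 20.9% of all canonical promoters. The YY1 motif AAGATGGCG was in 3 closed promoters (0.538%) and 93 open ones (5.13%), and in 3.84% of all. The NRF1 motif GCGCATGCG was in 1.43% and 4.63%, and in 3.40% of all. The differences for these 3 motifs were about as large within the high-CpG class, at -14.6 points for ETS, -4.86 for YY1 and -3.74 for NRF1.

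Other motifs differed less. The CCAAT box was in 51.3% of closed and 57.7% of open promoters (all, 73.3%), and the E-box CACGTG in 20.6% and 26.1% (all, 19.6%). The GC box GGGCGG, which binds Sp1, was in 98.2% and 99.7% (all, 72.8%). For 5 of the 11 motifs the interval of the difference included 0. The CTCF motif CNAGGGGGC was in 19.4% and 19.8% (all, 9.26%), a difference of -0.45 points (-4.05 to 3.46). AP-1 (TGACTCA or TGAGTCA) was in 7.71% and 9.27% (all, 12.9%), CRE (TGACGTCA) in 2.51% and 4.36% (all, 3.74%), and the REST half-site TTCAGCACC in 1.08% and 1.21% (all, 1.34%). A TATA box (TATAAA on the sense strand, 40 to 20 bp before the TSS) was in 14 closed promoters (2.51%) and in 1.54% of open ones (all, 3.87%).

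**Figure D2:**
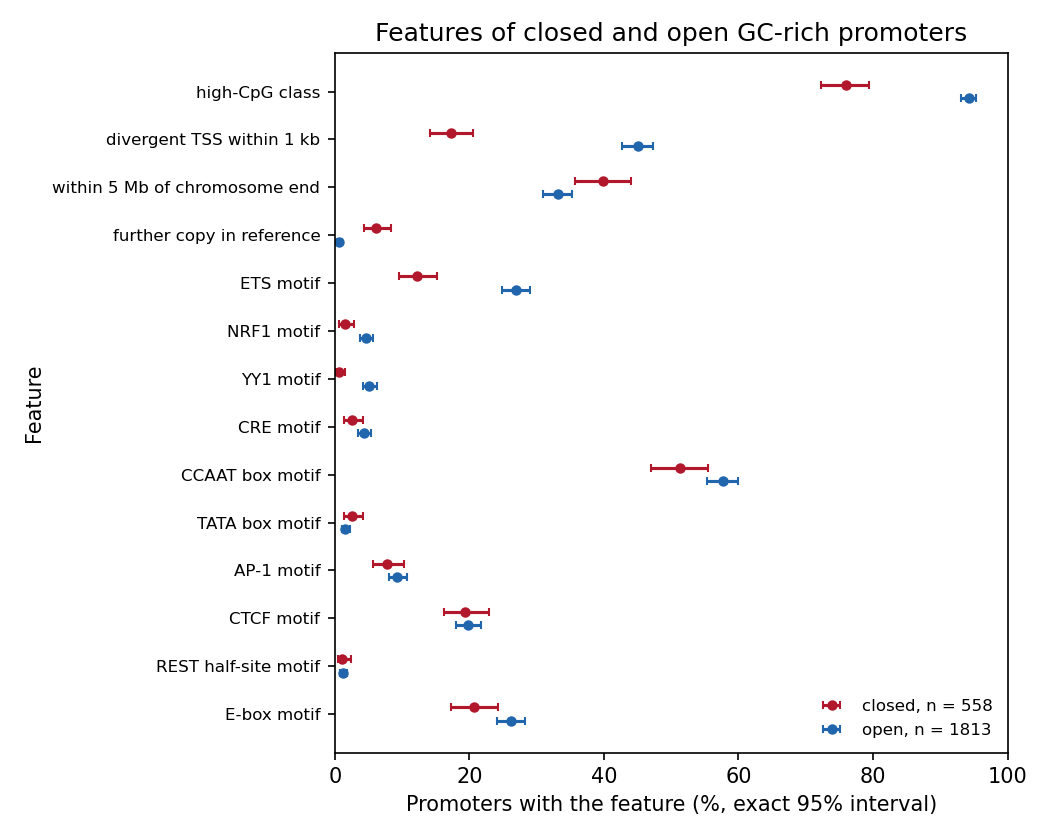
Share of closed (red, n = 558) and open (blue, n = 1813) GC-rich promoters with each feature (horizontal axis, percent); points are shares and lines exact 95% intervals. The high-CpG class (76.0% against 94.2%), a divergent TSS (17.2% against 45.0%) and the ETS motif (12.2% against 26.9%) lie far apart, and the CTCF motif (19.4% against 19.8%) does not.

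GC-rich promoters of the listed genes of development, signalling and excitable cells were closed at shares above the background. These lists held 69 of the 558 closed promoters (12.4%), so most closed promoters belonged to other genes. Among developmental transcription factor genes, 32 of the 58 GC-rich promoters with a peak in or near them were closed (55.2%, 41.5 to 68.3%), beside 23.5% over all GC-rich promoters. It was 27 of 53 (50.9%) within the high-CpG class, where 19.9% of all were closed. None of the 32 had a peak at another TSS of its gene, where 141 of all 558 (25.3%) did, but only 17 of the 32 had more than 1 annotated start position, against 466 of the 558 (83.5%). In the lists below, closed promoters are counted among GC-rich promoters with a peak in or near them. The lists were compiled with earlier results of these data known, and no list was tested.

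By family, all 4 SOX promoters with a peak in or near them were closed (39.8 to 100%), and all 3 NKX promoters (29.2 to 100%). Another 2 GC-rich SOX promoters had no peak within 50 kb and had been set aside. The nearest peak to SOX1, a factor of neural progenitors, lay 33.2 kb upstream at a fold of 26.8 (20.1 to 35.1). For SOX8 it lay 9.28 kb away, for SOX7 18.8 kb and for SOX18, an endothelial factor, 3.73 kb. NKX2-1, the factor of lung and thyroid, had its nearest peak 40.9 kb downstream, and NKX1-1 10.1 kb upstream. Of the tissue bHLH genes 5 of 6 were closed. They included ASCL2 of intestinal stem cells and trophoblast, PTF1A of the pancreas, TWIST2 of mesenchyme, and BHLHE23, and their nearest peaks lay 30.2, 32.6, 10.3 and 1.04 kb away.

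Other families were divided. Of the homeobox genes grouped with DLX, MSX, EMX and OTX, 7 of 13 were closed, among them BARHL2, HMX3, HMX1 and HHEX. Of the FOX genes 5 of 13 were closed. FOXF1, a factor of lung and gut mesenchyme, had a ratio of 0.952 and a weak peak (fold 6.18, 3.34 to 10.7) 7.05 kb downstream. FOXL3 had a stronger one (fold 22.2, 16.1 to 29.8) 1.23 kb downstream, inside the gene. Of the LIM homeobox genes 2 of 3 were closed, LMX1B and LHX3, and SIX2 and IRX6 were closed among 5 promoters of their families. POU4F2 and ONECUT3 were closed among 4, TBX4 among 3 and GATA5 among 2. The single PAX and the single ZIC promoter were open, and none of 39 HOX promoters reached the GC threshold.

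Among ligands of developmental signalling, 14 of 22 promoters were closed (63.6%, 40.7 to 82.8%). WNT ligands accounted for 6 of 8. WNT9A had a peak of fold 21.6 (15.7 to 29.2) inside the gene, 0.792 kb downstream of the window. Peaks near WNT6, WNT3A and WNT7A had folds of 12.4, 10.8 and 12.4 and lay upstream, at 4.58, 6.25 and 14.3 kb. WNT7B was the only closed one among 7 GC-rich promoters of genes that the study names, and its nearest peak, fold 13.9 (9.27 to 20.1), lay 199 bp upstream of the window. FGF ligands were closed in 3 of 5, FGF19, FGF8 and FGF4. BMP and GDF ligands and antagonists were closed in 5 of 9, among them GDF7, GDF1, GDF6 and FST. FST, which encodes the activin antagonist follistatin, had a peak of fold 8.76 at another of its start sites, 2065 bp away. FGF8 (fold 7.73) and the WNT ligand gene WNT10A (24.2) also had a peak at another start.

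Genes of neurons and other excitable cells were closed in 23 of 40 (57.5%, 40.9 to 73.0%). Potassium channel genes accounted for 11 of 23, among them KCNJ4, KCNK9, KCNK12 and KCNG1. KCNJ4, an inward rectifier, had a GC content of 80.7% and a ratio of 0.978, and its nearest peak lay 5.12 kb away. KCNK9, a background potassium channel that is also imprinted, had a strong peak (fold 42.3, 33.7 to 52.4) 1.36 kb upstream. Ionotropic receptor genes were closed in 6 of 8. These included GRIN2A and GRIN2C, subunits of the NMDA receptor, GRID1, and GABRD, a subunit of the GABA-A receptor. Receptors for monoamines, opioids and acetylcholine were closed in 6 of 9, with the dopamine receptor gene DRD1 and the adrenergic receptor genes ADRA2C, ADRA1D and ADRB1 among them. Of the 23 closed promoters, 3 had a peak at another start site of the gene. These were KCNK9 (fold 5.15), GRIN2A (17.5) and ADRA1D (5.67). The clustered protocadherin genes had no GC-rich promoter.

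Smaller lists held few promoters each and have wide intervals. Of germ line genes 4 of 5 were closed, TDRD10, BOLL, SOHLH1 and CTCFL (28.4 to 99.5%). Of imprinted genes it was 5 of 7, and 3 of 4 without those with a copy. CDKN1C and PHLDA2, which restrain growth, have copies. IGF2, the fetal growth factor, has none and had its nearest peak (fold 5.15, 2.64 to 9.32) 11.6 kb upstream. Among genes of other lineages 7 of 11 were closed. IKZF1 and LAT of lymphocytes, the alpha-globin genes HBA1 and HBA2 (both with a copy), and the muscle genes ACTA1, CKM and TNNI2 were those closed. Collagen genes were closed in 5 of 8. COL5A1 had a peak of fold 49.0 (39.7 to 59.8) 2.28 kb upstream, and COL9A3, COL8A2 and COL18A1 had peaks at other start sites.

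Kidney genes were closed in 2 of 4 (50%, 6.76 to 93.2%). These were RET, the receptor of ureteric bud growth, with its nearest peak 13.6 kb away, and SIX2, the factor of nephron progenitors, with a peak of fold 20.1 (14.4 to 27.4) 14.4 kb upstream. Of genes described as promoter-methylated in renal tumours, 3 of 5 were closed (60%, 14.7 to 94.7%). The intervals of this list and of the kidney list both included the 23.5% over all GC-rich promoters. BNC1, a zinc finger gene of epithelia, had a peak of fold 28.3 (21.4 to 36.8) 133 bp upstream of the window. GATA5 had a weak one (fold 5.15) 8.09 kb away. FBN2, which encodes fibrillin-2, had a peak of fold 31.9 at another start site 266172 bp away. Methylation was not measured here.

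Housekeeping and zinc finger genes lay below the background of 23.5%. Of 10 promoters of ribosomal protein, oxidative phosphorylation, proteasome and chaperonin genes with a peak in or near them, none was closed. This count allows up to 30.8%. Another GC-rich one, of a proteasome or chaperonin gene, had no peak within 50 kb and was among those set aside. Of zinc finger genes (ZNF) 4 of 34 were closed (11.8%, 3.30 to 27.5%), ZNF423, ZNF541, ZNF853 and ZNF512B. Both intervals included the background.

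**Figure D3:**
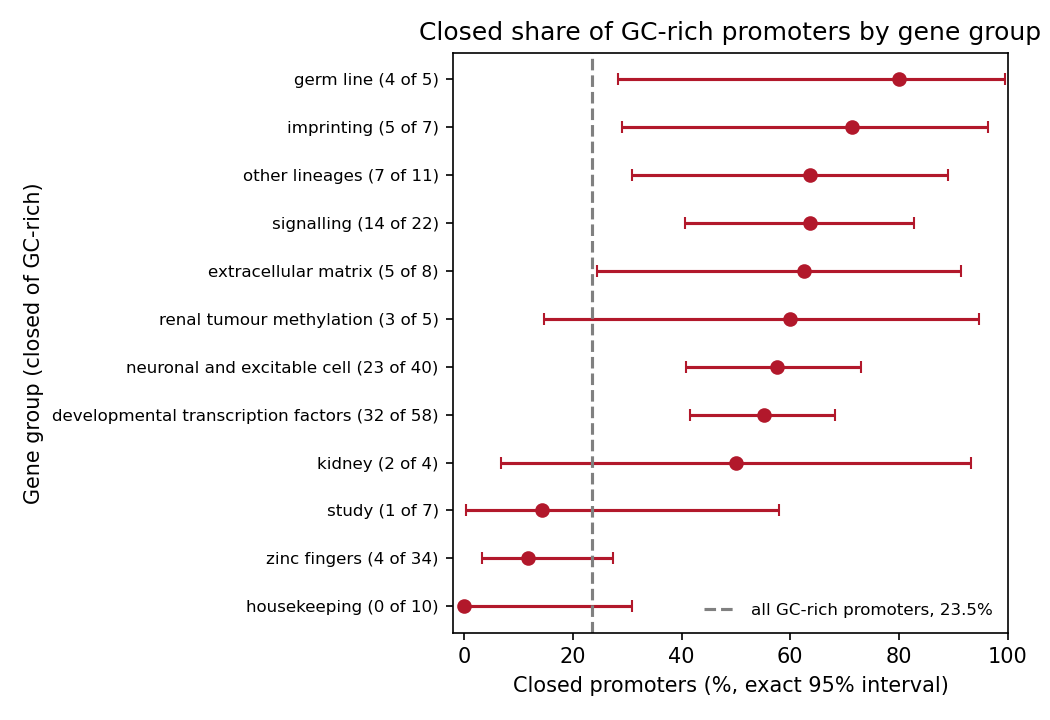
Closed share of GC-rich promoters with a peak in or near them, by gene group (horizontal axis, percent). The number closed and the number of such promoters stand beside each name. Points are shares, lines exact 95% intervals and the dashed line is 23.5%. Developmental transcription factors (55.2%), signalling (63.6%) and neuronal genes (57.5%) lie above the line, and housekeeping genes (0 of 10) below it.

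The nearest peak lay a median of 6.12 kb from the closed window (interquartile range, 1.99 to 15.5 kb), within the 50 kb that the rule allowed. With only peaks of a score above 200 the median was 10973 bp. It was within 1 kb for 82 promoters, over 1 to 5 kb for 173, over 5 to 20 kb for 204 and beyond for 99. It lay upstream for 295 and downstream for 263. By its summit, it was intergenic for 161 promoters (28.9%, 25.1 to 32.8%), in the body of the same gene for 156 (28.0%), at the promoter of another gene for 100 (17.9%), in the body of another gene for 90 (16.1%) and at another TSS of the same gene for 51 (9.14%). A promoter of either kind, of another gene or of another TSS, was thus nearest for 27.1%.

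**Figure D4:**
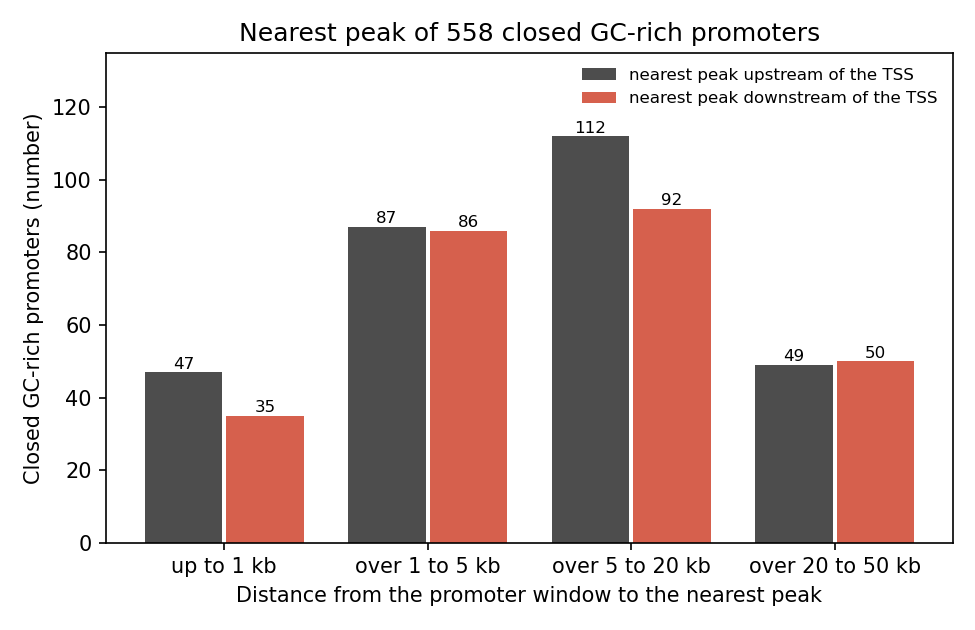
Number of closed GC-rich promoters (vertical axis) by distance from the window to the nearest peak (horizontal axis, kb), split into peaks upstream (grey) and downstream (red) of the TSS. The tallest class, 204 of 558, had it at 5 to 20 kb, and the sides were nearly even (295 and 263).

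These nearest peaks had a median fold of 9.79 (interquartile range, 6.18 to 17.5). The highest peak within the open promoters had a median fold of 23.2, but it was picked as the highest of its window and the nearest peak was not. Within 50 kb, closed promoters had a median of 5 peaks outside the window and open ones 6, with median highest folds of 27.3 and 31.9. The rule required at least 1 such peak of closed promoters and not of open ones, of which 1769 of 1813 had one, so these values are a description.

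Single promoters lay right beside open chromatin. GRIFIN, a galectin-related gene of the lens, had a peak of fold 36.1 (28.2 to 45.5) 14 bp outside its window, and SLC9A5, a sodium-proton exchanger gene, one of fold 34.5 at 64 bp. MAPK12, PLXDC1 and TPM2 had peaks at 61, 66 and 70 bp. For GRIFIN, SLC9A5, PLXDC1 and TPM2 this same peak overlapped the promoter stretch of another annotated start of the gene. MAPK12 had a different peak (fold 5.15, 2.64 to 9.32) at another of its starts. Among the strongest nearest peaks were those of CPLX1, a gene of synaptic vesicle release (fold 64.9, 54.1 to 77.3), IGFALS (61.3), LAD1 (59.8) and NKD2 (70.1), which has a copy. At the far end, JAKMIP1 and C4orf50, whose windows overlap, and PNMA2 had their nearest peak 49.1 kb away.

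For 141 of the 558 (25.3%, 21.7 to 29.1%) a peak lay at another annotated start site of the same gene, so the gene was not closed at every annotated start. This share is not given here for open promoters. With only peaks of a score above 200 the share was 16.7%. A peak counted here when it overlapped the promoter stretch, defined as above, of any other annotated transcript of the gene. Transcripts of every type were included, and whether any of these starts is used was not measured. The places of the nearest peaks above went by the summit alone. A peak could thus be intergenic in that count and at another start in this one. Several start positions were annotated for 466. The other site lay a median of 12.4 kb from the canonical one (range, 0.131 to 1122.67 kb), and its highest peak had a median fold of 12.4. The strongest of these, named after their values were seen, were those of PLCD1, GABBR2, RNF212 and DAB1. PLCD1, a phospholipase C gene, had a peak of fold 74.2 (62.6 to 87.3) at a start 4855 bp from the closed one. GABBR2, a subunit of the GABA-B receptor, had one of 69.0 at 333628 bp, RNF212, a gene of meiotic recombination, one of 64.4 at 31607 bp, and DAB1, an adaptor of reelin signalling, one of 63.4 at 1122674 bp.

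Closed promoters also stood in runs. A run was a series of neighbouring canonical start sites of any GC content, all closed, with at least 3 closed GC-rich promoters among them. Of all canonical promoters of any GC content 38.7% were closed, and how many runs that share alone would give was not tested. There were 14 runs, with 55 of the 558. The one with most members, on chromosome 11 from 1833990 to 2271588, had 12 closed start sites over 438 kb. Its 7 GC-rich ones were SYT8, TNNI2, MRPL23 (with a copy), IGF2, INS-IGF2, INS and ASCL2. The stretch held 16 peaks, the highest at a fold of 27.8 (21.0 to 36.2), so accessible sites lay between closed promoters.

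**Figure D5:**
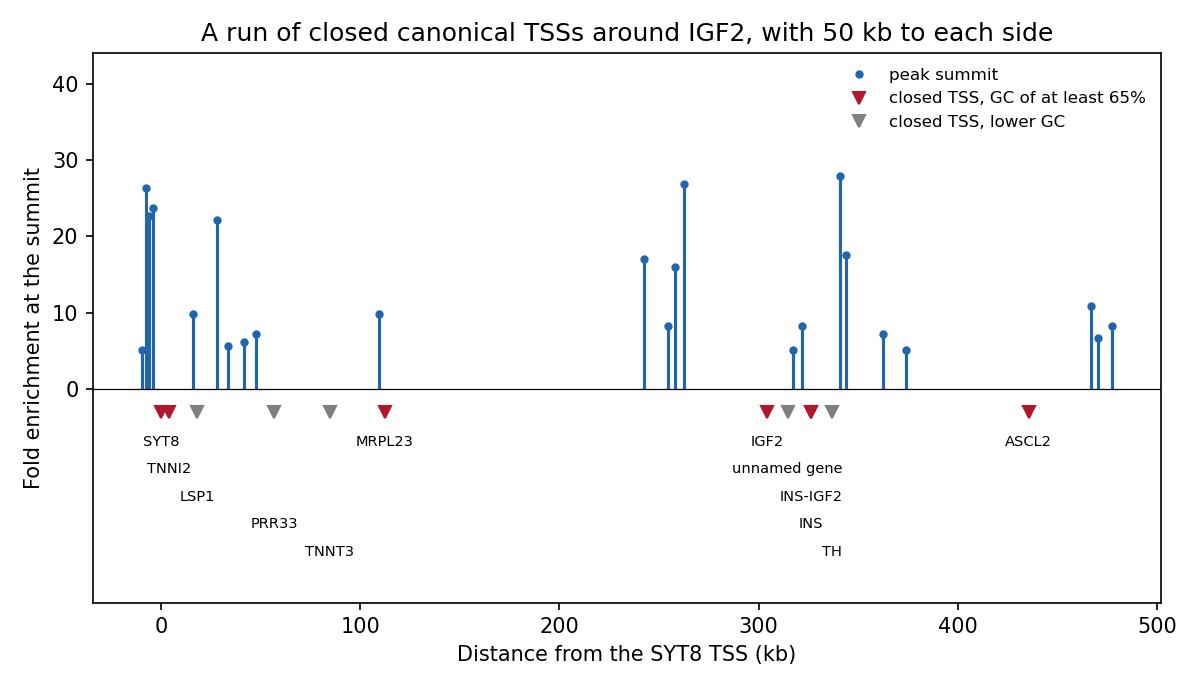
Peaks (blue, height is fold enrichment at the summit) and closed canonical start sites (triangles, red for GC of at least 65%, grey for lower GC) by distance from the SYT8 start site in kb. The 12 start sites are closed while 16 peaks, up to a fold of 27.8, lie inside the run.

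3 further runs had 6 GC-rich members each. On chromosome 10, NKX6-2, CFAP46, KNDC1, UTF1, VENTX and ADAM8 stood over 492 kb with 11 peaks, the highest at 52.0. On chromosome 16, SOX8, SSTR5, C1QTNF8, CACNA1H, TPSG1 and TPSB2 (the last 2 with copies) stood over 275 kb with 17 peaks. Nearer the end of that chromosome, PGAP6, DECR2, RAB11FIP3, CAPN15, PRR35 and NHLRC4 formed another run, in which DECR2, RAB11FIP3 and CAPN15 have copies. Runs went by canonical start sites alone. Of the members named so far, SYT8 (fold 26.3), CFAP46 (15.5) and CAPN15 (30.9) had a peak at another start of the gene. The next run was picked after its values were seen. The alpha-globin run of HBM, HBA2 and HBA1 held no peak, and HBA1 and HBA2 have copies.

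Closed shares differed between chromosomes. The highest was on chromosome 19, with 59 of 173 (34.1%, 27.1 to 41.7%), and the lowest on chromosome 13, with 3 of 40 (7.50%, 1.57 to 20.4%). Chromosomes 20 (33.0%, 23.9 to 43.1%), 22 (30.4%, 21.3 to 40.9%) and 16 (30.3%, 23.7 to 37.4%) were also high. The interval of chromosome 22 included the 23.5% over all GC-rich promoters. Without promoters that have a copy, the share of chromosome 16 was 26.4% (46 of 174). Chromosome 6 was low (12.2%, 5.71 to 21.8%). On chromosome 19 only 76.3% of GC-rich promoters were in the high-CpG class, and among those 22.7% were closed. Over all chromosomes 19.9% of the high-CpG class were closed. It was 30.1% on chromosome 20, 29.5% on chromosome 22 and 24.1% on chromosome 16. With only peaks of a score above 200 the closed share of chromosome 19 was 52.7%. Chromosome copy number of the line was not measured, and its part in these shares was not tested.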

How the data were processed

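The ATAC-seq library of the empty vector control was analysed from its deposited peak list. As the study's methods describe, the authors used fastp for trimming and Bowtie2 for alignment to hg38, removed mitochondrial reads, reads of low mapping quality and duplicates, and called peaks with MACS2 against 1 genome-wide background. The submitters' processing notes give Bowtie2 2.3.4.3 and MACS2 2.2.6. A shift to the Tn5 cutting position was not given in the sources used here. The deposited ratio is the fold enrichment at the summit, with 1 added to pileup and background, the deposited −log10 values are those of the p-value and q-value, and the deposited score is derived from the q-value. The deposited summit offset was used for the place of a peak. The lowest score was 52, and 22584 of 111260 peak numbers were absent, so the list had been filtered. Pileups were recovered from the folds and gave exact Poisson intervals.

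Promoters came from GENCODE release 44. Windows were aligned to the reference with minimap2 2.31 to find further copies. Shares carry exact Clopper-Pearson 95% intervals, differences Newcombe intervals and medians order-statistic intervals. Python 3.11.15, numpy 2.4.6, pandas 2.3.3, scipy 1.17.1, matplotlib 3.10.9 and samtools 1.23.1 were used, and the functions were tested on simulated data. The promoters and the gene lists were chosen with earlier results of these data known. From each list up to 4 closed promoters of highest CpG ratio were named, with the 5 at each end of CpG ratio and of peak distance, the 5 with the strongest nearest peak and the members of the 5 largest runs; some of these are given only as counts, and some are not reported here. The sequences shown are the bases before the TSS, where bases on both sides had been planned. The FOX list was corrected after the files were read, to leave out a gene that is no FOX factor. Alternatives were other score minimums, summit in place of overlap, other GC minimums, window and distance limits, and leaving out promoters with copies.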

Additional observations from a re-analysis of the deposited data

Results flagged for a closer look

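Chromosome X was not part of the promoters described above. Of its 70 GC-rich canonical promoters, 40 (57.1%, exact 95% interval 44.7 to 68.9%) had a peak in the window, 19 were closed with a peak within 50 kb, and 11 had none within 50 kb. It is given because a signal appeared in data that the report did not use.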

How the results depend on the processing

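There were 61 alternative values. Of these, 21 moved beyond the interval of the reported value or, for counts, beyond 1.5 times it, 40 did not, and 0 reversed. The count of closed promoters ranged within that limit from 459 with a peak within 20 kb to 814 with summits, and the runs rose from 14 to 21 with a score above 200. No paired analysis was possible because only 1 library was analysed, and leaving out a replicate could not be done. With only peaks of a score above 100, the closed share was 27.7%, the share with a peak at another TSS 19.3% and the median distance 8256 bp. With a score above 200 these were 33.9%, 16.7% and 10973 bp, the median CpG ratio was 0.727, the share whose nearest peak lay at another promoter, either of another gene or at another TSS of the gene, 37.7% (27.1% as reported), and the closed share of chromosome 19 52.7%. Counting only summits in the window as open gave a closed share of 34.3%, a median CpG ratio of 0.730 and a high-CpG share of 80.5%. A GC minimum of 60% gave 1264 closed promoters, a ratio of 0.630 and a high-CpG share of 60.5%, and one of 70% gave 173 promoters, a closed share of 20.9%, a ratio of 0.791 and a high-CpG share of 93.1%. Requiring a peak within 20 kb lowered the median distance to 4178 bp. The GC box difference within the high-CpG class was -0.53 points, with an interval that included 0. The median CpG ratio of closed promoters was below that of open ones in each alternative listed here, and the closed share rose with each stricter definition of a peak. The depth sets how weak an opening can be and still be listed, so the number of closed promoters depends on it.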

Other observations

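Gene symbols that share a stem were counted after values were seen, for all 11 stems with at least 10 GC-rich promoters. Solute carrier genes (SLC) were closed in 18 of 51 (35.3%, 22.4 to 49.9%), among them SLC18A2, SLC18A3 and SLC32A1, the vesicular transporters of monoamines, acetylcholine and GABA, and SLC6A19 and SLC34A3, transporters of amino acids and phosphate in the proximal tubule. Genes named TMEM were closed in 11 of 37 (29.7%, 15.9 to 47.0%). The other stems ran from FAM, 4 of 11 (36.4%), to ATP, 1 of 13 (7.69%). These counts too are of GC-rich promoters with a peak in or near them. The intervals of SLC, TMEM, FAM and ATP all included 23.5%, and no stem was tested.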
